A study of Mus musculus with 44 samples.

Results

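Gut endoderm cells of extraembryonic origin were compared between the hindgut and the midgut of E9.5 mouse embryos. The 4 libraries titled exHindgut and the 4 titled exMidgut were taken for this comparison, 8 of the 44 RNA-seq libraries of the series. The embryos were wild-type and lineage-traced, made by aggregating a morula carrying mCherry (CD1/G4 background) with GFP+ embryonic stem cells (G4). In such an aggregate the embryonic stem cells contribute to the embryo proper, while the visceral endoderm descends from the morula. Thus mCherry marks gut cells that came from the visceral endoderm. The mCherry cassette was a PiggyBac insertion driven by the EF1a promoter, and the GFP cassette sat in the Rosa26 locus under the CAG promoter. The mCherry mice were kept by crosses to C57BL/6J. Both reporter sources went back to single clones, the GFP+ cells being male and the mCherry+ cells of either sex. For each library the tissue of 4 embryos was pooled, EPCAM+ cells were enriched with magnetic beads and the mCherry+ fraction was sorted. The hindgut piece was the most posterior part of the embryo together with the hindgut in it, and the midgut piece lay anterior to it. Levels are given as TPM, shares of the transcripts in a library that are scaled for gene length, summed over the entries of a gene.

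The visceral endoderm is the outer epithelium of the early conceptus, which nourishes the embryo before the yolk sac circulation works. During gastrulation part of it is intercalated into the definitive endoderm and enters the gut tube, where the cells are patterned along the axis with their neighbours of epiblast origin. Axial position in the gut tube is read out by Hox and Cdx transcription factors, and the caudal end of the embryo is kept growing by Wnt and FGF ligands while retinoic acid is broken down there. The comparison asks which of these regional programmes the extraembryonic cells carried at E9.5.

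Promoters of 4 genes are shown first, each chosen together with a motif that its window holds, so they do not show how common a motif is. T and Hoxd11 were among the largest rises in exHindgut, Nepn was among the largest falls, and Cyp26a1 encodes the enzyme that removes retinoic acid. Each window is 300 bases of the RefSeq sequence (GRCm38.p6, the patch release of mm10), from 250 bases before to 50 bases from the annotated start, on the + strand. Capitals mark the hexamer TTTATG, a caudal-type homeodomain motif, in T, Hoxd11 and Nepn (as CATAAA where it lies on the opposite strand). In Cyp26a1 they mark a retinoic acid response element, a direct repeat with a spacer of 5 bases, on the opposite strand, a motif searched for after the expression values were seen. T encodes the T-box factor brachyury of the primitive streak and tail bud, Hoxd11 a posterior homeodomain factor, and Nepn the proteoglycan nephrocan of the midgut endoderm.
T, chr17:8434173-8434472: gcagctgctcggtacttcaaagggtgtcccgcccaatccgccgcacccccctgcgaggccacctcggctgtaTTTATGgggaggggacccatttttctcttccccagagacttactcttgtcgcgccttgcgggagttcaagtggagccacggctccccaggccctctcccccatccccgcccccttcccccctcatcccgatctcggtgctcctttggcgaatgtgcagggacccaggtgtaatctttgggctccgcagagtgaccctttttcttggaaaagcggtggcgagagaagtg
Hoxd11, chr2:74679308-74679607: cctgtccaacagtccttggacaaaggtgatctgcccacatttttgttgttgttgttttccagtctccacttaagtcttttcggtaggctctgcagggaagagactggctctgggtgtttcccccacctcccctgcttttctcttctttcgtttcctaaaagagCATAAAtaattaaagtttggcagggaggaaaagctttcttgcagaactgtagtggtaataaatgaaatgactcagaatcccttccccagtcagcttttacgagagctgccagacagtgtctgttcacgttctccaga
Cyp26a1, chr19:37697558-37697857: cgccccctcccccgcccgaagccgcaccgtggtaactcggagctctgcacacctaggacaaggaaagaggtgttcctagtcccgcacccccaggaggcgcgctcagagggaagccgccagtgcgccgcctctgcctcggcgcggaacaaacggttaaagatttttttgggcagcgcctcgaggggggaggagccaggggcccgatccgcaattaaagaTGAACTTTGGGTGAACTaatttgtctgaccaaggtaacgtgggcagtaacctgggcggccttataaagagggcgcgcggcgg
Nepn, chr10:52391358-52391657: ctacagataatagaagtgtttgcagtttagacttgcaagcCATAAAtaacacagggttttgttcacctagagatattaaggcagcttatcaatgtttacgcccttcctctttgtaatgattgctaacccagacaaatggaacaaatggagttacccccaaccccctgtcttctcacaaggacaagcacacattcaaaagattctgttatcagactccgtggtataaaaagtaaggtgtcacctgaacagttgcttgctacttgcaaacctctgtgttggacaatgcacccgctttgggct

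Searched on both strands, TTTATG occurred in 11.9% of all 32851 promoter windows and in 6.38% of the windows of tested genes. The share was 6.64% for genes called higher in exHindgut and 7.45% for genes called lower. RefSeq windows were matched by symbol for 415 of the 612 and 649 of the 870 called genes. Of the Hox genes, 5 of 24 windows held it (20.8%), of the tail bud genes 4 of 14 (28.6%), and of the visceral endoderm genes 6 of 31 (19.4%). The hexamer was thus found in windows of genes from both ends of the comparison. The longer posterior Hox-type motif CCAATAAA occurred in 1.12% of all windows and in 0.738% and 0.779% of those of genes called higher and lower. The retinoic acid response element was searched only with the exact half-sites that the Cyp26a1 window holds. This form occurred in 8 windows of all genes (0.0244%), the Cyp26a1 window necessarily among them. Other forms of the half-site were not counted, so this share does not show how common such elements are. A match describes letters in a window and no more. The RefSeq start of Nepn lies within the longer gene model of the deposited files.

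Libraries correlated more closely within a region than between regions. Across tested genes, log2(TPM + 1) values correlated at 0.933 to 0.942 within exHindgut, at 0.914 to 0.926 within exMidgut and at 0.824 to 0.878 between both. The tested genes include some that were listed at 0 in every library of a group, which lowers the values between both. The read coverage implied 3.53 to 12.04 gigabases of aligned sequence per library, and 13222 to 13483 genes were above 1 TPM. Among the reporters, mCherry stood at 7064 ± 286 TPM in exHindgut and 7296 ± 1047 TPM in exMidgut (SD, n = 4 each), and EGFP at no more than 2.38 TPM in any of the 8. One library stood apart within its group. Replicate 1 of exMidgut had the lowest summed level of visceral endoderm genes (9911 TPM, against 14979 to 22443 in the other 3) and the highest of Hox paralogues 10 to 13 (95.8 TPM, against 25.8 to 55.9). Without it, 699 genes were called higher and 833 lower, against 612 and 870 with all 8 libraries. The summed level of 4 Y-linked genes varied between libraries, from 0.001 to 68.7 TPM in exHindgut and from 19.8 to 138 TPM in exMidgut, and no Y-linked gene was called.

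Of 13281 genes tested, 1482 differed between the regions (11.2%). A gene was called when its adjusted p in limma (Benjamini-Hochberg) was below 0.05 and its difference of means exceeded 1 on the log2(TPM + 1) scale. In exHindgut 612 genes were higher (4.61% of those tested) and 870 were lower (6.55%), with a median difference of 0.01 over all tested genes. The 4 and 4 values did not overlap for 541 of the 612 and for 779 of the 870. Over all tested genes the values did not overlap, with exHindgut higher, for 10.1%, and with exHindgut lower for 10.7%. Differences over 4 were reached by 32 of the higher and 57 of the lower genes. Because these are pools of sorted cells, fewer cells of a type and less RNA per cell cannot be told apart. Each library is a pool of embryos, so p-values measure the spread between pools. Whether the hindgut and midgut libraries shared embryos is not given in the sources used here, and the fit was unpaired.

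**Figure D1:**
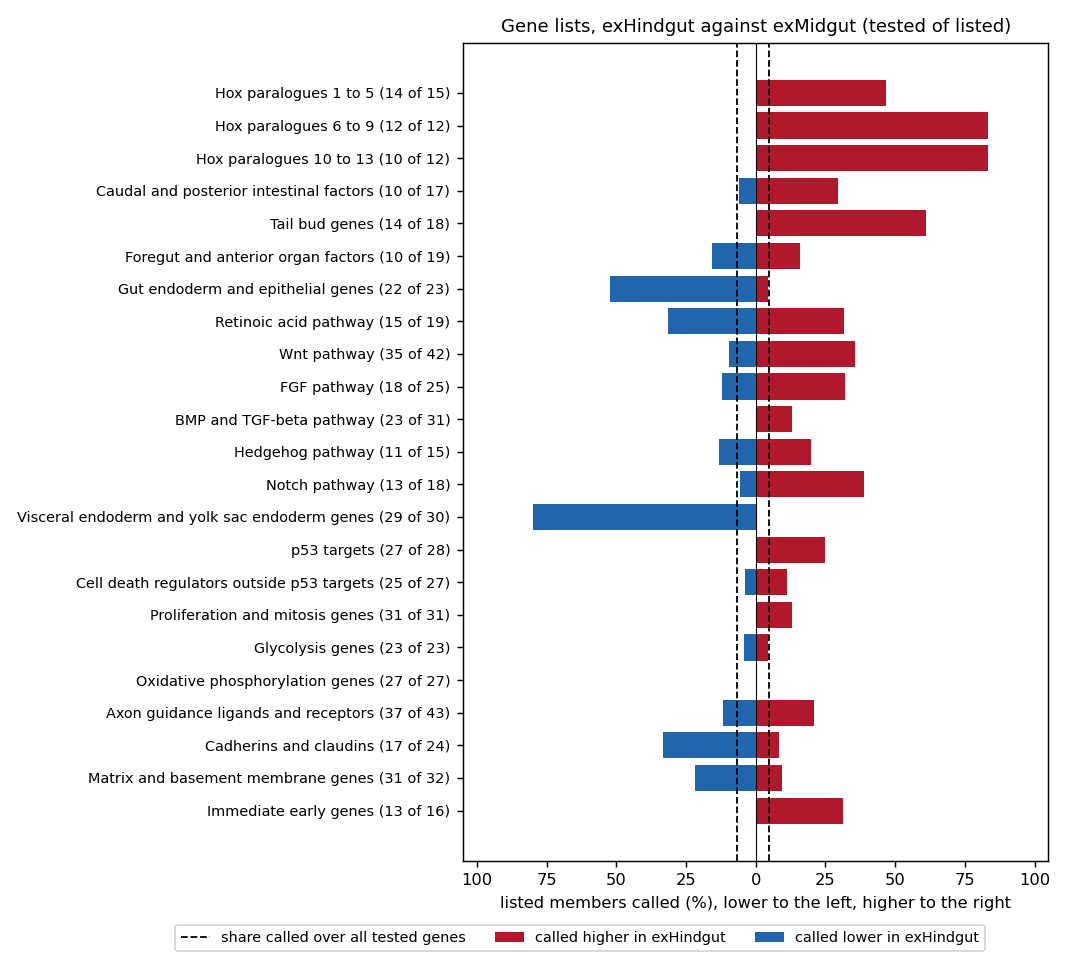
Bars give the percentage of each gene list called higher in exHindgut (red, to the right) or lower (blue, to the left), with the number tested of the number listed in brackets, and dashed lines mark the shares called over all tested genes, 4.61% and 6.55%. Hox and tail bud genes were called only as higher (27 of 39 and 11 of 18 listed) and the visceral endoderm list only as lower (24 of 30 listed).

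Hox genes were higher in exHindgut, with larger median differences in the middle and posterior paralogue groups than in the anterior ones. Of all 39 Hox genes, 36 passed the filter on low values, and 27 were called higher against 4.61% of all tested genes. None was called lower, and none of the 36 had a negative difference. Of those tested, 3 of paralogues 10 to 13 and 1 of paralogues 1 to 5 passed the filter through exHindgut alone, so they could only be called higher. Over all listed members the median difference was 1.502 for paralogues 1 to 5 (7 of 15 called), 2.67 for paralogues 6 to 9 (10 of 12) and 2.87 for paralogues 10 to 13 (10 of 12). Hox genes encode the homeodomain factors that assign position along the body axis, and higher paralogue numbers are used further back.

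Hoxc10 stood at 88.4, 93.2, 103 and 62.7 TPM in the 4 exHindgut libraries and at 0.288, 0.787, 0 and 0 TPM in the 4 exMidgut libraries. No exMidgut library came near the exHindgut values, and the difference of 6.13 ± 0.34 (log2, SE) had an adjusted p of 1.04e-07 in limma. Hoxd11, whose promoter is shown above, ran from 38.1 to 56.3 TPM in exHindgut and from 0 to 0.883 TPM in exMidgut (difference 5.28 ± 0.37, adjusted p 7.66e-07 in limma). The most abundant posterior member was Hoxa10, at 285, 209, 196 and 233 TPM against 43.7, 31.8, 23.0 and 41.3 TPM. It was thus present in both regions, with a difference of 2.71 ± 0.20. Hoxc11 (4.81), Hoxa11 (4.37), Hoxd10 (3.12), Hoxc12 (2.90), Hoxa13 (2.60) and Hoxc13 (2.07) were also called.

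The middle of the clusters behaved alike. Hoxa7 had 107, 134, 198 and 130 TPM in exHindgut and 12.4, 25.7, 13.3 and 25.1 TPM in exMidgut. The groups did not overlap, and the difference was 2.87 ± 0.27 (adjusted p 7.87e-06 in limma). Hoxa6 (3.37), Hoxb9 (3.11), Hoxc6 (2.77), Hoxa9 (2.77), Hoxc8 (2.73), Hoxd8 (2.60), Hoxb6 (2.29) and Hoxc9 (2.14) were called as well. Hoxb7 and Hoxb8 were not called, with differences of 0.68 and 0.90.

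Among anterior paralogues, Hoxc5 (2.33), Hoxb2 (2.26), Hoxa5 (2.19), Hoxa3 (2.19) and Hoxb5 (1.98) were called. Hoxd4 did not pass, at 40.8 to 82.0 TPM in exHindgut and 32.3 to 51.4 TPM in exMidgut, nor did Hoxd3, Hoxc4, Hoxa2, Hoxa4 and Hoxd1, among others. Some calls were fragile. Hoxb3 (2.23), Hoxb4 (1.28), Hoxd9 (1.73) and Hoxd13 (2.85) each lost their call in at least 1 fit without a single library, while the number of Hox genes called stayed between 24 and 27 in those fits. Hoxd13 was lost without exHindgut replicate 2 (adjusted p 0.0538 in limma), and its highest exMidgut value, 27.5 TPM, was in replicate 1. The library kit does not keep strand, so reads from a Hox gene and from a transcript antisense to it cannot be told apart.

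**Figure D2:**
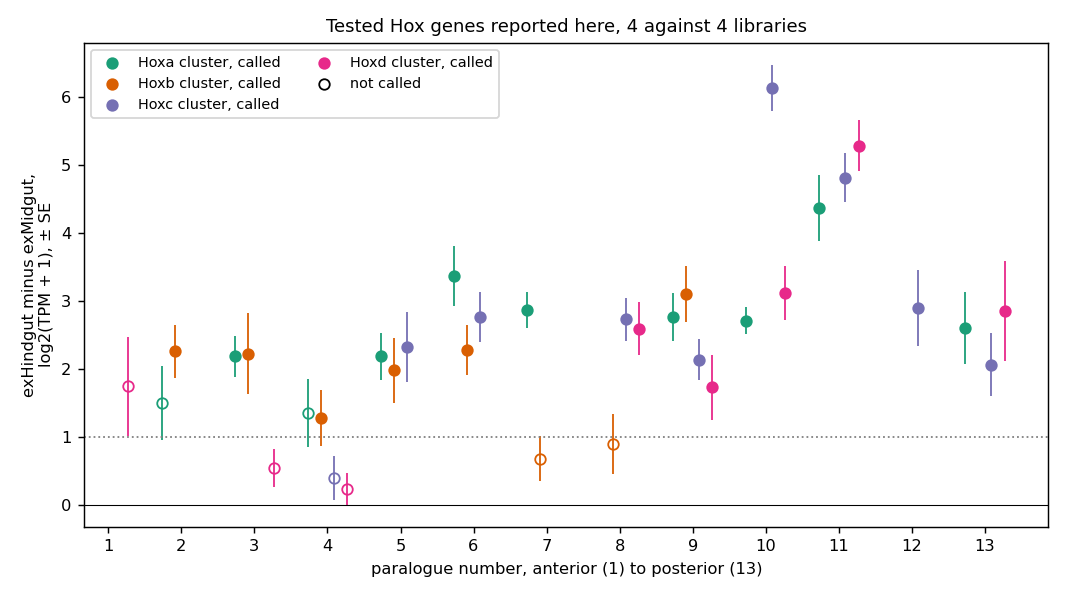
Each point is a tested Hox gene reported here, placed by paralogue number from anterior to posterior (x axis) and by the difference of exHindgut minus exMidgut in log2(TPM + 1) (y axis, bars are SE), with the 4 clusters in colour and open points for genes not called. The medians are 1.502 over paralogues 1 to 5 and 2.87 over paralogues 10 to 13, and Hoxc10 lies highest at 6.13.

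Cdx factors, the caudal homologues that stand upstream of Hox genes in the posterior body, did not follow the Hox genes. Cdx2, the intestinal member, stood at 334, 205, 231 and 205 TPM in exHindgut and 137, 127, 167 and 180 TPM in exMidgut. The groups did not overlap, but the difference of 0.65 ± 0.17 (adjusted p 0.0167 in limma) was under the fold threshold. Cdx4 was at 16.2, 0, 0 and 0.080 TPM in exHindgut and at no more than 0.147 TPM in exMidgut, and Cdx1 was at no more than 2.61 TPM in any of the 8. Neither passed the filter. Of the 17 caudal and posterior intestinal factors, 10 were tested, 5 were called higher and 1 lower (all tested genes: 4.61% and 6.55%). The median difference over the list was 0.77.

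Msx1 and Msx2, homeodomain factors downstream of BMP signals, differed by 4.39 ± 0.30 and 2.80 ± 0.33. Evx1, a homeodomain factor of the posterior streak and the neighbour of Hoxa13, ran from 35.8 to 50.9 TPM in exHindgut and from 0 to 10.6 TPM in exMidgut (3.23 ± 0.58). Tbx3 rose by 1.31 ± 0.31. Isl1 rose by 2.15, a call lost without exHindgut replicate 2, without exHindgut replicate 3 or without exMidgut replicate 4. Nr2f2, a nuclear receptor, was the member that fell, from 108 to 168 TPM in exMidgut to 22.5 to 33.4 TPM in exHindgut (−2.24 ± 0.19).

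Genes of the tail bud showed the highest rises. Of 18 listed genes 14 were tested, 11 were called higher and none lower (all genes: 4.61% and 6.55%), with a list median of 3.60. Of the 14, 4 passed the filter through exHindgut alone and could only be called higher. Fgf8, the FGF ligand that keeps the caudal end undifferentiated, stood at 591, 431, 376 and 321 TPM in exHindgut. In exMidgut it was at 0, 0.586, 0 and 0 TPM. The regions were fully apart, and the difference of 8.55 ± 0.28 (adjusted p 6.11e-10 in limma) was the largest rise of all genes that were not listed at 0 throughout one group.

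T was at 286, 163, 141 and 195 TPM in exHindgut and at 0, 5.84, 0 and 1.42 TPM in exMidgut. The lowest exHindgut library was thus far above the highest exMidgut library, with a difference of 6.56 ± 0.52 (adjusted p 1.67e-06 in limma). Cyp26a1, the cytochrome P450 that degrades retinoic acid, had 231, 218, 265 and 196 TPM against 0.063, 0, 1.03 and 1.46 TPM (7.23 ± 0.33, adjusted p 1.08e-08 in limma). Its 4 exHindgut values lay close together. Fgf17, a ligand of the Fgf8 family, ran from 116 to 246 TPM against 0 to 2.97 TPM (6.72 ± 0.44).

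Wnt3a, the Wnt ligand of the tail bud, had 30.4, 12.6, 25.9 and 32.6 TPM in exHindgut and was listed at 0 in all 4 exMidgut libraries (adjusted p 5.03e-06 in limma). Mixl1, a homeodomain factor of the primitive streak, had 16.5, 36.2, 22.5 and 88.3 TPM and was also listed at 0 in exMidgut (adjusted p 1e-05 in limma). Hes7, the oscillating repressor of the segmentation clock, differed by 4.21 ± 0.44, and Sp5, a Wnt target, by 3.97 ± 0.54. Outside the list, the LIM-domain cofactor Lmo2 (131 to 277 TPM) and the G protein-coupled receptor Gpr83 (23.1 to 38.0 TPM) were listed at 0 in exMidgut. The homeodomain factor Tlx2 ran from 23.1 to 36.7 TPM in exHindgut and reached no more than 0.168 TPM in exMidgut (4.83 ± 0.37).

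Genes of paraxial mesoderm progenitors varied more between pools. Msgn1, a bHLH factor of presomitic mesoderm, was at 59.0, 0, 28.3 and 25.4 TPM in exHindgut and at 0 in exMidgut, which left it under the filter. Tbx6 was at 15.6, 1.66, 21.2 and 9.62 TPM against 0, 0.105, 3.26 and 0.610 TPM. The regions overlapped for Tbx6, whose difference was 2.61 ± 0.66 (adjusted p 0.0153 in limma). Pax3, a paired factor of the dorsal neural tube and somites, rose by 3.49 ± 0.54, from 0.026 to 4.77 TPM in exMidgut to 20.1 to 26.5 TPM in exHindgut.

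Markers of other posterior tissues were measured beside these genes. The summed level of 11 neural markers was 24.1 to 31.6 TPM in exHindgut and 6.001 to 9.197 TPM in exMidgut. Pax3 made up most of the exHindgut sum, Map2 was at similar levels in both, and 9 of the 11, Sox1, Pax6, Olig2 and Sox10 among them, were below 1 TPM in every exHindgut library. The 11 mesenchyme markers summed to 25.6 to 34.8 TPM and 4.97 to 19.7 TPM. Pdgfra and Prrx1 led this sum with means of 7.28 and 11.1 TPM in exHindgut, neither was called, and Meox2 and Foxc2 were listed at 0. The 6 notochord markers summed to 219 to 318 TPM and 75.7 to 149 TPM, with T called higher, Shh and Foxj1 called lower, and Noto at means of 1.58 and 0.925 TPM. The part of such cells in the tail bud values was not tested.

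**Figure D3:**
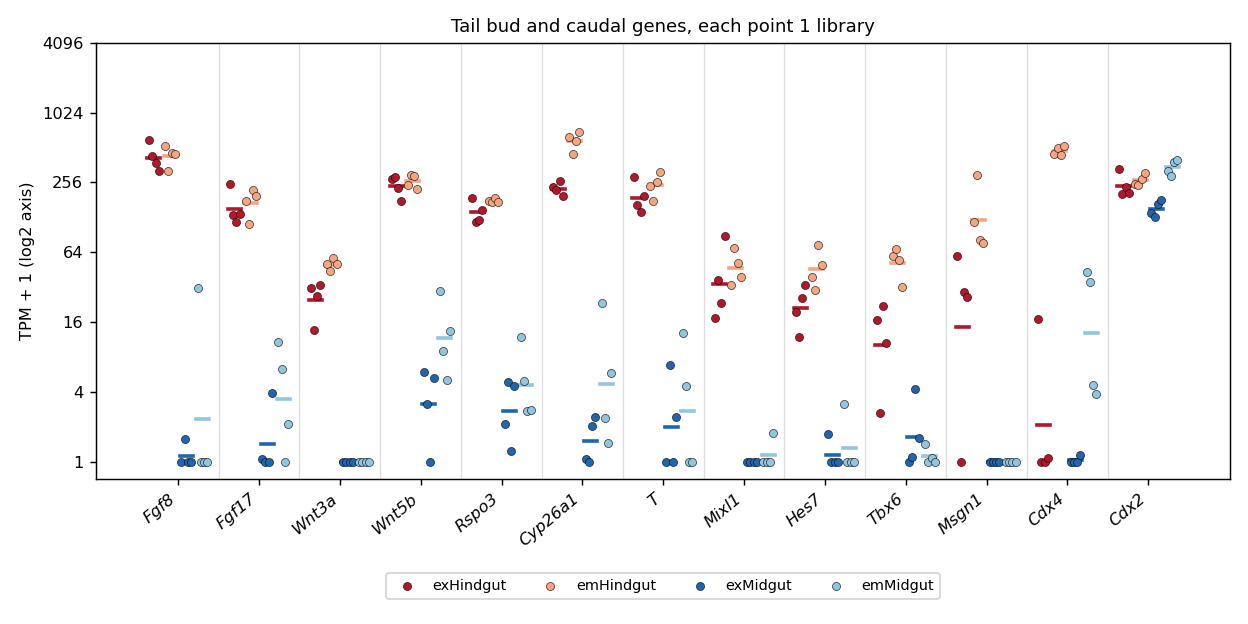
Each point is the level of a tail bud or caudal gene in 1 library (TPM + 1 on a log2 axis), in exHindgut, emHindgut, exMidgut and emMidgut, and bars are means on that scale. Fgf8, Cyp26a1 and T are above 140 TPM in every exHindgut library and under 6 TPM in every exMidgut library, Cdx2 is high in all 4 groups, and Cdx4 is high in emHindgut only.

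Some ligands and targets of Wnt signalling were higher in exHindgut. Of 42 listed Wnt pathway genes 35 were tested, with 15 called higher and 4 lower (4.61% and 6.55% over all tested genes), and the median over the list was 0.80. Wnt5b, a ligand of the non-canonical branch, had 272, 282, 229 and 177 TPM against 4.96, 2.14, 0 and 4.32 TPM. It was the most abundant Wnt ligand in exHindgut and near absent in exMidgut (6.23 ± 0.45, adjusted p 9.45e-07 in limma). Rspo3, a secreted enhancer of Wnt receptors, ran from 115 to 188 TPM against 0.241 to 3.87 TPM (5.68 ± 0.40). Wnt5a differed by 2.89 ± 0.23, and Wnt3, at 4.88 to 10.6 TPM in exHindgut, was listed at 0 in exMidgut.

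Several feedback targets of the pathway moved with the ligands, while the inhibitor Nkd2 was not called (−0.34). Axin2, which limits β-catenin and is a common readout of the pathway, was at 21.1, 25.6, 10.7 and 10.0 TPM against 0.123, 1.34, 0.436 and 0.484 TPM (3.43 ± 0.44). Nkd1 (4.23), Sp8 (3.57), Apcdd1 (3.003) and Notum (2.33) were also higher. Among receptors the picture was split. Fzd10 was higher (3.16 ± 0.49), while Fzd2 (−1.21), Fzd5 (−1.89) and the R-spondin receptor Lgr4 (−1.54) were lower. The remaining fall was Tcf7l1, a repressor at Wnt targets (−1.04).

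The ligands Fgf8 and Fgf17 and several feedback regulators were higher, and Fgfr2, Fgfr4 and the coreceptor Klb were lower. Of 25 FGF pathway genes 18 were tested, 8 called higher and 3 lower (all tested genes: 4.61% and 6.55%), with a median of 0.70. Besides Fgf8 and Fgf17, the transcriptional effector Etv4 had 49.5, 30.8, 26.7 and 38.8 TPM against 2.03, 1.86, 0 and 0 TPM (4.41 ± 0.46). The groups were far apart. The ERK phosphatase Dusp6, a direct readout of FGF signals, had 456, 282, 351 and 428 TPM against 67.2, 56.3, 21.4 and 87.6 TPM (2.82 ± 0.32). Spry4 (3.39), Dusp4 (2.52), Il17rd (1.81) and Spry1 (1.33), all feedback inhibitors, rose too. The 3 falls were Fgfr4 (−2.23), its coreceptor Klb (−2.33) and Fgfr2 (−1.36).

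The BMP pathway genes that were called were all higher. Of 31 listed genes of the BMP and TGF-β pathway 23 were tested, 4 were called higher and none lower, with a median of 0.49. Over all tested genes the shares called were 4.61% and 6.55%. Bmp4, a ligand of the posterior body and the hindgut, had 122, 187, 173 and 124 TPM against 58.4, 30.3, 14.9 and 44.8 TPM (2.13 ± 0.32, adjusted p 0.000484 in limma). The target genes Id1 (1.78 ± 0.20), Id3 (1.73 ± 0.15) and Id4 (2.11 ± 0.46) rose, with Id3 at 1112 to 1673 TPM against 326 to 517 TPM. BMP receptors differed little, from −0.10 for Bmpr1a to 0.37 for Bmpr1b.

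Notch targets and a Notch receptor were higher. Of 18 Notch pathway genes 13 were tested, 7 called higher and 1 lower (all tested genes: 4.61% and 6.55%), with a median of 1.19. Hey1, a target and repressor, had 52.7, 55.1, 38.8 and 68.9 TPM against 6.70, 2.06, 1.24 and 0.699 TPM (4.13 ± 0.43). The regions did not overlap. Lfng, which modifies Notch and cycles in the segmentation clock, differed by 2.99 ± 0.60 and Nrarp by 2.98 ± 0.46. The receptor Notch1 rose by 2.91 ± 0.41 and the ligand Jag1 by 2.88 ± 0.36, while Notch2 fell by 1.33 (SE 0.24). Hey2, at 2.06, lost its call without exHindgut replicate 1.

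Hedgehog ligands of the gut epithelium were lower in exHindgut, although these calls were not stable. Of 15 genes 11 were tested, 3 called higher and 2 lower (all tested genes: 4.61% and 6.55%), with a median of 0.44. Shh had 16.7, 66.9, 60.2 and 51.3 TPM against 136, 97.6, 66.8 and 120 TPM, and Ihh 13.1, 19.24, 20.6 and 4.19 TPM against 29.5, 25.4, 51.3 and 52.1 TPM. For Shh 1 exHindgut library lay just above the lowest exMidgut library. The differences were −1.21 ± 0.36 and −1.53 ± 0.42. Without exMidgut replicate 4 neither ligand was called, and no gene of the list was then called lower. The target Gli1 rose by 1.92 ± 0.46 and kept its call in every fit without 1 library, and Gli3 rose by 1.37 ± 0.33.

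Genes of the retinoic acid pathway went both ways. Of 19 genes 15 were tested, 6 were called higher and 6 lower (all tested genes: 4.61% and 6.55%), with a list median of 0.00. Transport, synthesis and receptors each held members called higher and members called lower. Rbp4, the plasma carrier of retinol, had 85.1, 40.4, 31.5 and 41.6 TPM in exHindgut and 1285, 3012, 4991 and 2425 TPM in exMidgut. The lowest exMidgut value came from replicate 1 and still lay far above exHindgut (−5.80 ± 0.35, adjusted p 2.02e-07 in limma). Rarb, a receptor gene that retinoic acid itself induces, had 13.4, 8.24, 29.9 and 13.9 TPM against 87.4, 108, 117 and 77.4 TPM (−2.63 ± 0.31).

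Rdh10, the enzyme that makes retinaldehyde, fell by 3.40 (SE 0.42), and Dhrs3 (−1.53) and Rara (−1.21) were lower as well. Higher, besides Cyp26a1, were the binding protein Crabp1 (4.39 ± 0.43), the retinol transporter Stra6 (3.66 ± 0.41), the receptor Rarg (1.16 ± 0.35), and the synthesis enzymes Aldh1a2 (2.39 ± 0.54) and Aldh1a1 (1.92 ± 0.48). Both enzymes were at low levels, with exHindgut means of 9.22 and 6.89 TPM. With no filter on low values, 3 members were called higher and 5 lower.

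The genes that fell most were those of the visceral endoderm and of early midgut endoderm. Of 30 listed visceral endoderm and yolk sac endoderm genes 29 were tested, and 24 were called lower against 6.55% of all tested genes. None was called higher, and the median over the list was −4.13. Of the 29, 5 passed the filter through exMidgut alone and could only be called lower. The summed level of the list was 472 to 1103 TPM in exHindgut and 9911 to 22443 TPM in exMidgut. These genes encode the serum proteins, apolipoproteins and uptake receptors by which this epithelium feeds the embryo.

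Apoa1, the main protein of high-density lipoprotein, was at 0, 2.69, 7.22 and 7.88 TPM in exHindgut and at 440, 1580, 2410 and 1332 TPM in exMidgut. The difference of −8.24 ± 0.61 (adjusted p 1.09e-06 in limma) separated the regions without overlap. Afp, the fetal serum protein α-fetoprotein, had 22.1, 109, 437 and 176 TPM against 4641, 7408, 8162 and 6142 TPM. It varied among the exHindgut pools but overlapped nowhere (−5.77 ± 0.60, adjusted p 2.14e-05 in limma). Apoe ran from 21.4 to 36.8 TPM against 673 to 1757 TPM (−5.34 ± 0.25).

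The lipoprotein genes Apoa2 (−5.75) and Apob (−4.54), the fibrinogen chain Fgb (−5.14), transthyretin (Ttr, −3.99 ± 0.80) and transferrin (Trf, −3.62 ± 0.26) were lower too. Cubn, the endocytic receptor cubilin, had 8.58 to 39.6 TPM in exMidgut and was listed at 0 in exHindgut, as was the lectin Lgals2 with 146 to 373 TPM in exMidgut. Lrp2, the partner of cubilin in endocytosis, was low in both regions (means 4.48 and 3.31 TPM) and was not called. Spp2, a secreted phosphoprotein, was at 0, 0, 4.08 and 0 TPM against 50.6, 416, 371 and 75.3 TPM (−6.71 ± 0.69).

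Levels in the yolk sac endoderm (YsEndo, 4 mCherry+ libraries of E9.5) put these values in scale. Of the 30 listed genes, 27 had a higher mean in YsEndo than in exMidgut. Afp averaged 24839 TPM in YsEndo, Apoa1 17746 TPM and Rbp4 11920.5 TPM, each above every exMidgut library. Spp2 and Lgals2 averaged 3006 and 1998 TPM there. The part of yolk sac cells in the exMidgut values was not tested.

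Other genes of the midgut side were near 0 in yolk sac endoderm. Nepn was at 0, 0, 3.38 and 6.81 TPM in exHindgut and 1456, 1037, 2037 and 2361 TPM in exMidgut, with a mean of 0.377 TPM in YsEndo. This was the largest fall outside genes listed at 0 (−9.41 ± 0.55, adjusted p 1.79e-07 in limma). Sycn, the zymogen granule protein syncollin, had 349, 200, 567 and 372 TPM in exMidgut and was listed at 0 in all 4 exHindgut libraries (YsEndo mean 0.830 TPM). Pnliprp1, a pancreatic lipase-related gene, had 30.0 to 95.9 TPM in exMidgut and was listed at 0 in exHindgut (YsEndo mean 0.428 TPM). Tff3, a trefoil peptide of mucus, differed by −8.997 ± 0.56 and Fam183b by −5.47 ± 0.42. Tff3 was also found in YsEndo, at 147 TPM.

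Several transcription factors of gut and liver endoderm were lower. Of 23 gut endoderm and epithelial genes 22 were tested, 12 called lower and 1 higher (all genes: 6.55% and 4.61%), with a median of −1.09. Gata4 had 0, 0, 0.469 and 0.257 TPM in exHindgut and 6.55, 16.6, 48.8 and 22.1 TPM in exMidgut (−4.08 ± 0.53, adjusted p 0.000123 in limma). Hnf4a, at no more than 0.116 TPM in exHindgut, ran from 1.71 to 35.3 TPM in exMidgut (−3.46 ± 0.64). For both, exMidgut replicate 1 held the lowest exMidgut value. Gata6 (−2.55 ± 0.41), Foxa1 (−1.93 ± 0.19) and Foxa3 (−1.92 ± 0.32) were also lower.

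Foxa2, the pioneer factor of all definitive endoderm, was not called (31.1 to 62.0 TPM against 49.3 to 75.4 TPM, −0.37 ± 0.23). The member that rose was Sox17, an early endoderm factor, at 39.7, 22.6, 12.2 and 14.2 TPM against 0.532, 0.874, 4.78 and 0 TPM (3.38 ± 0.55). Epithelial genes were present in both regions and lower in exHindgut. Cdh1, which encodes E-cadherin, had 50.5, 72.7, 77.9 and 85.0 TPM against 148, 166, 154 and 156 TPM (−1.14 ± 0.16). Krt18 (−1.32), Krt8 (−1.10) and Krt19 (−1.09) fell by similar amounts, and Epcam, the sort marker itself, stood at 479 to 659 TPM against 841 to 1030 TPM (−0.79 ± 0.11, under the fold threshold). Without exHindgut replicate 1 the number of lower genes in this list was 7.

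Of 24 cadherins and claudins 17 were tested, 8 were lower and 2 higher (all tested genes: 6.55% and 4.61%), with a median of −0.44. Cldn2, a pore-forming claudin, differed by −4.26 ± 0.56 and Cdh6 by −2.84 ± 0.39, while Cdh2, which encodes N-cadherin, rose by 3.07 ± 0.49, from 1.27 to 17.3 TPM in exMidgut to 46.3 to 67.3 TPM in exHindgut. E-cadherin and N-cadherin transcripts thus moved in opposite directions, although neither was lost from either region. Without exHindgut replicate 1, or without exMidgut replicate 4, 5 members were lower. Among 32 matrix genes 3 were higher and 7 lower (all tested genes: 4.61% and 6.55%), with a median of −0.39. The basement membrane collagens Col4a1 (−1.75 ± 0.22) and Col4a2 (−2.22 ± 0.34) were lower, and the microfibril gene Mfap4 (3.99 ± 0.38) and the protease Mmp2 (2.74 ± 0.49) were higher. Without exMidgut replicate 3, 4 matrix genes were lower.

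Foregut and anterior organ factors did not form a single group. Of 19 genes 10 were tested, 3 called higher and 3 lower (all tested genes: 4.61% and 6.55%), with a median of 0.00. Onecut1, a liver and pancreas factor, had 9.72, 16.7, 29.3 and 19.3 TPM in exMidgut and was listed at 0 in exHindgut. Gata5 was lower as well (−2.16 ± 0.53). Pax9 (2.64 ± 0.45) and Mnx1 (2.32 ± 0.40), known from the pharynx and the pancreas but also from caudal tissues, were higher in exHindgut. Onecut2 (−1.94) lost its call without exHindgut replicate 2, exMidgut replicate 3 or exMidgut replicate 4, and Ptf1a (1.81) without exHindgut replicate 4. With no filter on low values 1 foregut factor was lower.

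Guidance molecules were divided between the regions. Of 43 axon guidance genes 37 were tested, 9 called higher and 5 lower (all tested genes: 4.61% and 6.55%), with a median of 0.13. The receptor Epha5, at 10.1 to 19.5 TPM in exHindgut and no more than 0.007 TPM in exMidgut, differed by 3.84 ± 0.40, and Slit2, a repulsive ligand, by 2.64 ± 0.42. Sema3c (−2.72 ± 0.37) and its receptors Nrp2 (−2.47 ± 0.33) and Plxna2 (−3.10 ± 0.40) were lower together. Without exHindgut replicate 1, 3 of these genes were lower.

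**Figure D4:**
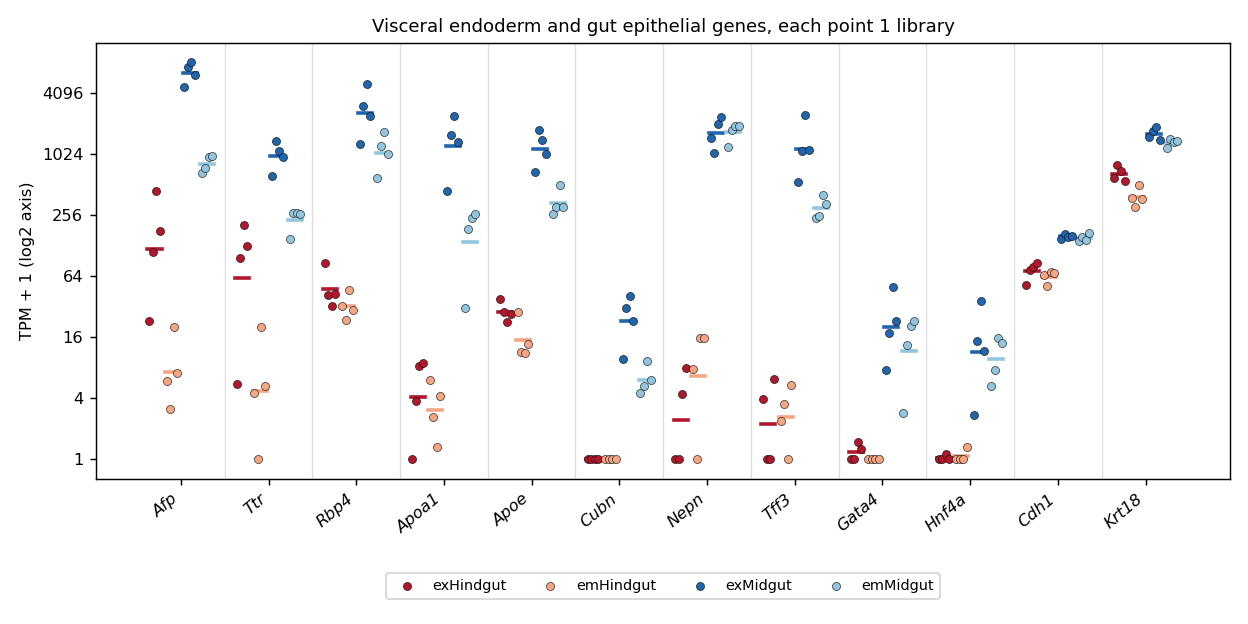
Each point is the level of a visceral endoderm or gut epithelial gene in 1 library (TPM + 1 on a log2 axis), in exHindgut, emHindgut, exMidgut and emMidgut, and bars are means on that scale. Apoa1 and Nepn are below 8 TPM in every exHindgut library and above 400 TPM in every exMidgut library, whereas Cdh1 and Krt18 differ between regions by about 1 on the log2 scale.

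Genes that mark extraembryonic origin differed little between the regions. Of 11 listed, 10 were tested and 1 was called. The X-linked genes Rhox5 (means 814 and 1032 TPM), Trap1a (540 and 561 TPM), Xlr3a (355 and 299 TPM) and Xlr5a (175 and 167 TPM) were at high levels in both and not called. Cdkn2a, the tumour suppressor locus of p16 and p19ARF, had 205, 183, 171 and 229 TPM in exHindgut and 405, 381, 463 and 547 TPM in exMidgut. The regions did not overlap (−1.18 ± 0.13, adjusted p 4.27e-05 in limma). In emHindgut and emMidgut its means were 1.54 and 16.1 TPM. Of 28 germline genes 13 were tested and Slc25a31, an ADP/ATP carrier of germ cells, was the one called (−1.78 ± 0.35). The share called lower over all tested genes was 6.55%.

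Of 28 p53 targets 27 were tested, 7 were called higher, against 4.61% of all tested genes, and none lower, with a median of 0.51. Pmaip1, which encodes the pro-apoptotic protein NOXA, had 27.3, 42.8, 26.5 and 39.3 TPM against 0.747, 9.55, 7.92 and 7.87 TPM. The regions did not overlap (2.47 ± 0.49, adjusted p 0.00346 in limma). The death receptor gene Eda2r rose by 1.57 ± 0.32, from 11.3 to 33.1 TPM to 39.8 to 91.1 TPM. Cdkn1a, which encodes p21, had 586, 701, 490 and 541 TPM against 238, 225, 378 and 279 TPM. Its difference of 1.06 ± 0.16 fell below the fold threshold without exHindgut replicate 2, exMidgut replicate 1 or exMidgut replicate 2, although its groups did not overlap. Aen, Phlda3 and Zmat3 lay between 1.09 and 1.14 and were not called without exHindgut replicate 4, when 3 members of the list were called, and Aen was also lost without exMidgut replicate 3. Trp53 itself differed by 0.55 ± 0.13, and Bax (0.60), Bbc3 (0.58) and Mdm2 (−0.14) were not called.

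Outside the p53 targets, 25 of 27 cell death regulators were tested, 3 were higher and 1 was lower, against 4.61% and 6.55% of all tested genes. Without single libraries 2 to 4 were higher and 0 to 2 lower. Bok, a BCL2 family effector, had 121, 95.6, 112 and 75.4 TPM against 6.89, 14.1, 20.004 and 9.57 TPM (2.98 ± 0.29, adjusted p 1.14e-05 in limma). Its values were fully apart. Ripk3, the necroptosis kinase, rose by 1.69 ± 0.36, while its partner Mlkl was listed at 0 in all 8 libraries. Casp9 (0.19) was not called.

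Of 31 proliferation and mitosis genes, all tested, 4 were called higher, against 4.61% of all tested genes, and none lower, with a median of 0.66. Ccnd1, the G1 cyclin D1, ran from 220 to 304 TPM against 58.3 to 125 TPM (1.49 ± 0.22). The number called was 10 without exMidgut replicate 1 and 2 without exHindgut replicate 3 or without exMidgut replicate 3. Immediate early genes respond within minutes to growth factors and to tissue handling. Of the 16 listed, 5 were higher, against 4.61% of all tested genes, and none was lower, with a median of 0.75. Junb rose by 2.14 ± 0.25 and Egr1 by 1.39 ± 0.29, whereas the calls of Fos, Ier2 and Zfp36 were lost in fits without 1 library. Between 2 and 5 genes of this list were called when a library was left out, the fewest without exHindgut replicate 4.

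Markers of other cell types were measured in the same libraries. Blood markers summed to 0.665 to 8.42 TPM in exHindgut and 0.128 to 9.65 TPM in exMidgut, and the endothelial markers to at most 3.37 TPM. Of 6 macrophage markers, Csf1r was at 9.26, 24.4, 25.9 and 10.3 TPM in exMidgut and listed at 0 in exHindgut, while C1qa, C1qb, Adgre1 and Cx3cr1 were listed at 0 in all 8 libraries and Ptprc averaged 0.0393 TPM in exMidgut. The summed surface ectoderm and nephric duct markers overlapped between the regions, and none of these genes was called. Of 10 germ cell markers Prdm1, which is also an endoderm gene, was called (−2.42). Of 23 glycolysis genes 1 was higher and 1 lower (all tested genes: 4.61% and 6.55%). Among 27 oxidative phosphorylation genes none was called, but 26 had a positive difference, with a median of 0.21. Values did not overlap for 11 with exHindgut higher and 1 with exHindgut lower, against 10.1% and 10.7% of all tested genes.

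The same regions were compared in cells of embryonic origin (emHindgut and emMidgut, 4 libraries each, EPCAM+ cells of the same stage that were positive for GFP and carried a low mCherry signal). Per the study's methods, such dual-labelled cells are embryonic cells that took up remnants of extraembryonic cells, and they may hold transcripts of these. The part of such remnants in the emHindgut and emMidgut values below was not tested. No library is used in both comparisons, but both kinds of cells come from pieces of lineage-traced embryos, and whether they shared embryo pools is not given in the sources used here. Of 13491 genes tested, 738 were higher in emHindgut (5.47%) and 1120 lower (8.3%). Of the 612 genes higher in exHindgut, 571 were tested and 365 were called in the same direction, which is 59.6% of the 612 and 49.5% of the 738. Of the 870 lower genes, 810 were tested and 575 were called lower, 66.1% of the 870 and 51.3% of the 1120. The sign was the same for 96.3% and 98.4% of those tested. Fgl1, described below, was the only gene called in opposite directions.

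The Hox, tail bud and visceral endoderm lists ran in parallel, but not every list did. In embryonic cells 35 Hox genes were called higher (13, 11 and 11 in the 3 paralogue ranges) and none lower. Of the tail bud genes 12 were higher, and of the visceral endoderm genes 21 were lower. Of 27 p53 targets tested in embryonic cells, 3 were higher and 1 lower (all tested genes: 5.47% and 8.3%), with a list median of 0.001. In extraembryonic cells 7 were higher and none lower, with a list median of 0.51. No p53 target was called for the interaction of region and origin described below. Fgf8 averaged 439 TPM in emHindgut and 430 TPM in exHindgut, and T 246 and 196 TPM. The visceral endoderm genes had a lower mean in emMidgut than in exMidgut for 28 of the 30 listed, Afp averaging 831 TPM against 6588 TPM and Apoa1 177 TPM against 1440 TPM. Nepn was at like levels, with means of 1704 and 1723 TPM in both midguts.

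Whether the regional difference itself depended on origin was tested as an interaction of region and origin over all 16 libraries. Of 15048 genes tested, 14 had an adjusted p below 0.05 in limma (0.093%), and 1158 an unadjusted one. Each interaction value is the exHindgut minus exMidgut difference minus the same difference in embryonic cells. These calls depended on the settings, and the number was 0 with a pseudocount of 0.1, 5 with the replicate number as a block within each origin, and between 5 and 18 without single libraries.

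Hoxb1, the most 3′ gene of the HoxB cluster and a gene of the tail bud at this stage, had the smallest adjusted p. It was at 65.5, 54.5, 54.8 and 45.3 TPM in emHindgut but at 0.017, 0, 1.33 and 2.05 TPM in exHindgut, and at no more than 0.122 TPM in either midgut (interaction −5.04, adjusted p 0.000167 in limma). The regional difference was thus larger in embryonic cells. Hoxd12 had 26.4 to 43.4 TPM in emHindgut and 0.903 to 2.81 TPM in exHindgut (−3.27, adjusted p 0.0335). The Wnt inhibitor Nkd2 had 20.5 to 62.0 TPM in emHindgut and 0 to 4.17 TPM in exHindgut (−4.41, adjusted p 0.0318), and the mesenchymal cadherin Cdh11 32.8 to 47.6 TPM and 0.261 to 2.79 TPM (−3.76, adjusted p 0.0072).

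Cdx4 had the same form, with 451, 509, 437 and 526 TPM in emHindgut against at most 16.2 TPM in exHindgut. Its emMidgut values spread from 2.83 to 42.6 TPM, and the interaction of −4.22 ± 1.11 did not pass (adjusted p 0.213 in limma). Cdx2 showed a smaller interaction of 1.03 ± 0.22 (adjusted p 0.0905 in limma), since it was lower in emHindgut (mean 267 TPM) than in emMidgut (349 TPM).

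Among genes of the midgut side, Sycn was 200 to 567 TPM in exMidgut and 34.4 to 113 TPM in emMidgut (−3.27, adjusted p 0.0336), and Trf fell more in extraembryonic than in embryonic cells (−2.19, adjusted p 0.0395), as did clusterin, Clu (−1.46, adjusted p 0.0402). Rgn, which encodes regucalcin, fell less, from a mean of 38.3 to 14.6 TPM in extraembryonic cells and from 109 to 5.87 TPM in embryonic cells (2.88, adjusted p 0.0072). Fgl1, a fibrinogen-like secreted protein, was at 7.06, 6.52, 7.15 and 6.25 TPM in exHindgut and 0, 1.25, 2.85 and 0 TPM in exMidgut. In embryonic cells the order was the opposite, with 0, 0, 4.51 and 1.05 TPM in emHindgut and 4.06 to 8.52 TPM in emMidgut (4.05, adjusted p 0.0352). Abhd12b (4.104 to 22.0 TPM in exHindgut) was listed at 0 in all 8 embryonic libraries.

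**Figure D5:**
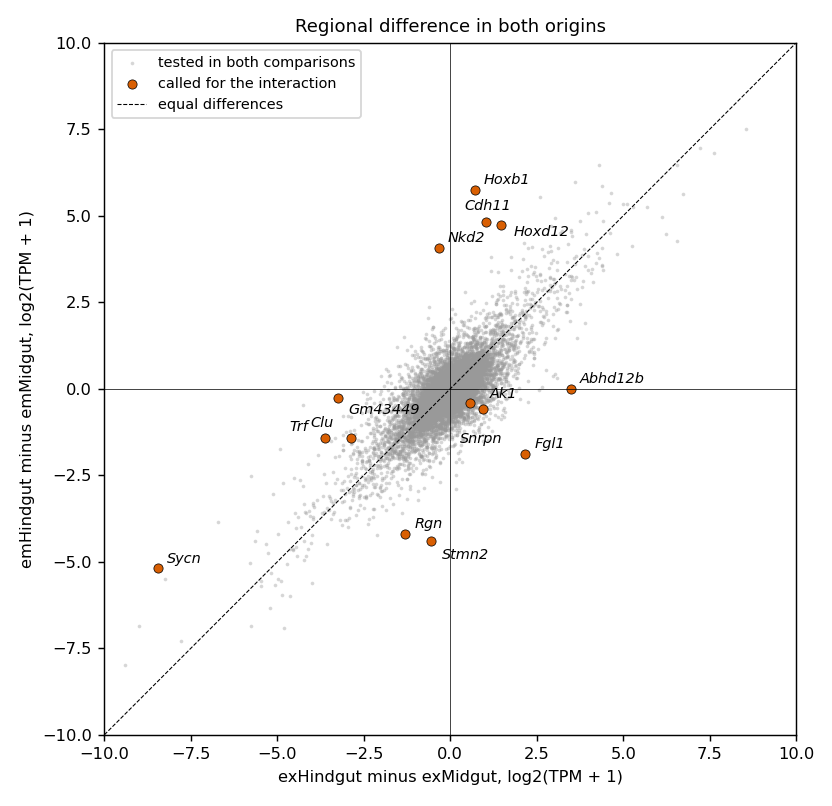
Each grey point is a gene tested in both origins, with the hindgut minus midgut difference in log2(TPM + 1) in extraembryonic cells on the x axis and in embryonic cells on the y axis, and orange points are the 14 genes called for the interaction. The grey points spread along the dashed line of equal differences, and the orange points lie off it, Hoxb1 above it with an interaction of −5.04.

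A later stage was available as E13.5 colon and small intestine of extraembryonic origin (exColon and exSI, 3 libraries each from single embryos). The mCherry+ cells of these embryos were Trp53 knockout, while the embryonic cells of the same stage are labelled wild type. Stage and genotype of the sorted cells thus differ from the E9.5 libraries together and cannot be told apart. Of 12053 genes tested, 26 were higher in exColon (0.216%) and 52 lower (0.431%), and 1291 had an unadjusted p below 0.05 in limma. Of the 612 genes higher in exHindgut, 347 were tested, and 1 was higher in exColon (Ly6a) while 3 were lower (Cdkn1a, Hist1h2ab and Hist1h2bm). Most tail bud genes had fallen below the filter by then, with 4 of 18 tested. No Hox gene was called among 15 tested, Hoxa7 having the smallest adjusted p of them, 0.0861.

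Of the 870 genes lower in exHindgut, 783 were tested. In exColon 21 of them were again lower, among them the enterocyte fatty acid-binding proteins Fabp1 and Fabp2, Gata5, Onecut2 and Lgals2 (126 to 688 TPM in exColon against 2780 to 4311 TPM in exSI). Another 10 were higher in exColon. Afp, lower in exHindgut at E9.5, was at 1375 to 3462 TPM in exColon and 345 to 832 TPM in exSI (2.16 ± 0.36, adjusted p 0.0268 in limma), and Spink1 was at 419 to 692 TPM and 112 to 245 TPM (1.94 ± 0.32). The change between stages was not tested. The number of genes called at E13.5 fell to between 6 and 51 when 1 library was left out, the lowest without exSI replicate 2.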

How the data were processed

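RNA was measured in pools of sorted gut endoderm cells. Per the labels and the study's methods, the authors made low-input poly(A) libraries without strand information, used cutadapt 4.1 for trimming, STAR 2.7.9a for alignment to mm10 plus both reporter sequences, and StringTie 2.0.6 to quantify GENCODE genes. The TPM values deposited by the authors are scaled for gene length and library total. The FPKM values deposited by the authors, scaled for length and depth, served as an alternative. The coverage values deposited by the authors gave the sequence depth behind each library, since no read counts were used.

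TPM were summed per gene identifier, and genes above 1 TPM in at least 4 of the 8 libraries (3 of 6 at E13.5) were tested. Differences of log2(TPM + 1) were fitted with limma 3.58.1 (trended empirical Bayes, R 4.3.3) over all such genes and adjusted by Benjamini-Hochberg. With the pseudocount of 1, these differences understate the change of low genes. The interaction was fitted over 4 groups of 4, and called on adjusted p alone. Tables and figures used Python 3.11.15, pandas 2.3.3, numpy 2.4.6 and matplotlib 3.10.9, and the estimated block correlation used statmod 1.5.0. The fits were tested on simulated data.

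The comparison, the 34 gene lists and the rules were chosen with earlier results of these data known. Genes named by rule were the 12 largest non-overlapping protein-coding rises and falls, up to 6 called members of largest difference per list, every Hox and Cdx gene, genes called for the interaction, and reporters and origin genes. Other genes, such as Tbx6, Msgn1, Hes7, Wnt3, Aldh1a2, Cdh1, the keratins, Epcam, Foxa2 and the marker genes, were chosen after their values were seen. Alternatives were another pseudocount, no filter, FPKM, rescaling, quantile normalization, no trend, protein-coding genes off the Y chromosome, a replicate block, a single fit of the 4 gut groups, and leaving out each library. Some genes are not reported here.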

Additional observations from a re-analysis of the deposited data

Results flagged for a closer look

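The limma interaction of region and origin (log2, extraembryonic minus embryonic) had an adjusted p below 0.05 for 14 genes. It was negative for Hoxb1 (−5.04), Nkd2 (−4.41), Cdh11 (−3.76), Hoxd12 (−3.27), Sycn (−3.27), Gm43449 (−2.99), Trf (−2.19) and Clu (−1.46). It was positive for Fgl1 (4.05), Stmn2 (3.85), Abhd12b (3.48), Rgn (2.88), Ak1 (1.53) and Snrpn (0.99). Several of these genes were listed at 0 in all libraries of a group, so their values depend on the pseudocount. None of the 14 was called with a pseudocount of 0.1.

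A single library lay far from the other 3 of its group in 8 of 130 gene groups examined (Dixon's ratio above its 95% critical value), where chance gives about 5%. In exHindgut these were Cdx4 (16.2 TPM in replicate 1), Hoxc11 (37.4 TPM in replicate 1), Hoxb13 (2.78 TPM in replicate 1) and Spp2 (4.08 TPM in replicate 3). In exMidgut they were Fgf17 (2.97 TPM in replicate 4), Hoxc12 (2.99 TPM in replicate 1), Hoxd4 (32.3 TPM in replicate 3) and Stmn2 (3.90 TPM in replicate 3).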

How the results depend on the processing

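The number of genes called between exHindgut and exMidgut was 1482, and stayed within 1.5 times of that under every alternative run. It was 1021 with no filter on low values, and 1204 to 1532 without single libraries. Of 146 named genes called, 114 were called under every alternative and all 146 kept their direction. Whether same-numbered libraries came from the same embryos is not given in the sources used here. Deviations of same-numbered libraries correlated weakly, at −0.004 to 0.052, but 6 of 8 libraries correlated best with their own number. With the replicate block 1461 genes were called in extraembryonic cells, 1846 in embryonic cells and 103 at E13.5. Embryonic calls ranged from 1612 to 1881 without single libraries, and E13.5 calls from 6 to 51 against 78. For the interaction, 14 genes were called, 5 with the replicate block within origin, 0 with a pseudocount of 0.1 (1111 at an unadjusted p below 0.05 in limma), and 5 to 18 without single libraries, the most without exMidgut replicate 1. The cause was not tested. Of these 14 genes none was called under every alternative, and all kept their direction. With no read counts, counting error behind low TPM values is unknown.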
